A study of Mus musculus with 6 samples.

Results

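The chemokine receptor gene Cxcr3 and the genes of its 3 chemokine ligands, Cxcl9, Cxcl10 and Cxcl11, were followed through 6 RNA-seq libraries of regenerating mouse muscle. The 4 genes were taken by symbol from a table of 52369 genes, and all 4 were found in it and passed the filter on low values (mean of at least 1 FPKM), as did 14788 genes in all. They had been chosen by their levels, ratios and joint variation in these same 6 libraries, with their difference between the groups already known. Every value of theirs below is therefore a description with no test of its own, and the p-values the authors deposited are quoted only as such.

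The libraries came from tibialis anterior muscle of C57BL/6 mice, in an L7 group of 3 libraries in which Linc-smad7, a long non-coding RNA, was overexpressed, per the labels, and a Control group of 3. In both groups the muscle was injured at 5 weeks of age with 50 µl of 10 µM cardiotoxin, a cobra venom peptide that kills myofibres but spares the stem cells that rebuild them. Both then received repeated injections of 6.25 µg of pcDNA3.1 plasmid, mixed with an in vivo transfection reagent in glucose solution, and the muscle was harvested on day 7; the labelled age is 6 weeks. What the Control plasmid carried, which cells took up plasmid, and whether the libraries of a group came from separate mice are not given in the labels, so the p-values below measure only the spread between these samples.

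Between 19420012 and 24663153 reads fell in genes per library. Of the 6 libraries, L7 replicate 3 differed most from the rest: its 10 most abundant genes held 14.1% of reads, against 6.57% to 8.40% elsewhere, and its scaling factor by median of ratios was 0.774, against 1.028 to 1.098. Genes that mark muscle fibres were abundant in every library, so the tissue label held; Acta1, the skeletal muscle actin, ranged from 11190 to 33720 FPKM in L7 and from 5718 to 9450 FPKM in Control. The labels give no identifier for Linc-smad7. Gm20544, an unnamed transcript annotated next to Smad7, was at 10.7, 15.7 and 5.47 FPKM in L7 replicates 1, 2 and 3, against 1.87, 2.54 and 1.70 FPKM in Control replicates 1, 2 and 3. By reads from the Y chromosome and from Xist, L7 replicates 2 and 3 and Control replicate 2 came from females and the other 3 libraries from males.

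CXCR3 is a G protein-coupled receptor carried mainly by activated T cells and natural killer (NK) cells. Its ligands are chemokines that macrophages, endothelium and other tissue cells make after exposure to interferon gamma, through JAK kinases and the transcription factor IRF1, so that T and NK cells that secrete interferon gamma also recruit more cells bearing the receptor. In injured muscle, infiltrating macrophages and lymphocytes are part of the course of repair. Mice of the C57BL/6 background carry a frameshift in Cxcl11 and are held to make no working CXCL11 protein, and the annotation used here accordingly lists Cxcl11 as a polymorphic pseudogene; its transcript can still be measured.

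The 3 ligand genes lie side by side on the minus strand of mouse chromosome 5 (build mm10), within 44.1 kb. Cxcl9 occupies chr5:92321347-92328079, Cxcl10 chr5:92346638-92348889 and Cxcl11 chr5:92359544-92365485, with 18.6 kb between Cxcl9 and Cxcl10 and 10.7 kb between Cxcl10 and Cxcl11. Cxcr3 lies on the minus strand of the X chromosome, at chrX:101731535-101734269. RefSeq promoter sequences (GRCm38.p6) matched 3 of the 4 members by symbol. Of these, only Cxcl10 held exact matches to the interferon and NF-kB letters searched for. Sites that depart from those letters were not sought, so their absence from the other windows was not tested. The bases just upstream of the annotated starts are shown for the windows Cxcl9 chr5:92328080-92328329, Cxcl10 chr5:92348890-92349139 and Cxcr3 chrX:101734270-101734397, all on the minus strand and written 5′ to 3′.
Cxcl9: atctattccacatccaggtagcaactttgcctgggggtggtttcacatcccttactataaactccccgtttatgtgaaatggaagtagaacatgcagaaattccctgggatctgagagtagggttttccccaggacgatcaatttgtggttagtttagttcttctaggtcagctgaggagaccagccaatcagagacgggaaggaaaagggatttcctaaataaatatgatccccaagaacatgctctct
Cxcl10: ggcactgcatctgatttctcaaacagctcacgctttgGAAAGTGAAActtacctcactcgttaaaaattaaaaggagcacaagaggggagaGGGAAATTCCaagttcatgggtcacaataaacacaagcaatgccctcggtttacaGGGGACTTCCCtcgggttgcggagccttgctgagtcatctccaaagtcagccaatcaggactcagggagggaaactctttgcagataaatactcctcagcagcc
Cxcr3: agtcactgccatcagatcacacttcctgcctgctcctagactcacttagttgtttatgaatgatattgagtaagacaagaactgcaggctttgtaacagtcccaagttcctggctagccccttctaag
Capitals mark matches to an interferon-stimulated response element (ISRE) or to an NF-kB site. Of Cxcr3 only the 128 bases upstream of the GENCODE gene are printed, since its RefSeq start lies inside that gene. The search was wider there than the print: for each of the 3 genes, both strands of the 250 bases upstream of the RefSeq start were searched for 5 motifs: the ISRE (GAAA, any 2 bases, GAAA), the interferon gamma-activated GAS element (TTCNNNGAA), the NF-kB site by its usual consensus, a TATA box (TATAAA) and the T-box site (GGTGTGA). In the 250 bases of Cxcl10 the ISRE letters stood at -213 to -204, counted back from the start, and NF-kB letters at -159 to -150, -104 to -95 and -103 to -94, the last 2 being overlapping readings of the same stretch. Of 32851 RefSeq promoters, each read over its own 250 bases, 2.98% held the ISRE letters and 7.25% the NF-kB letters. Of the 5, the 250 bases of Cxcl9 held only the TATA letters, at -195 to -190, a motif found in 12.4% of promoters, and the 250 bases of Cxcr3, printed or not, held none of them. The GAS letters stood in 7.02% and the T-box letters in 3.33% of promoters and in none of these 3 genes' 250 bases. These matches describe letters in short windows and were set against no binding data.

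All 3 ligand transcripts were lower in L7 muscle than in Control muscle, each at about the same proportion, while the receptor transcript overlapped between the groups. In group means, L7 held 0.368 of the Control level of Cxcl9, 0.371 of that of Cxcl10 and 0.332 of that of Cxcl11, and 0.974 of that of Cxcr3. Levels are FPKM, which divides fragments by gene length and library depth. FPKM does not correct for a few genes that take a large share of a library's reads, as in L7 replicate 3. Comparisons of levels between libraries carry that limit, and values with another scaling are given at the end.

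Cxcl9 encodes the ligand that depends most strictly on interferon gamma. It was at 64.9, 141.4 and 64.3 FPKM in L7 replicates 1, 2 and 3, against 330.7, 146.4 and 259.2 FPKM in Control replicates 1, 2 and 3. The groups did not overlap, but only just: L7 replicate 2 lay well above the other L7 libraries and directly below Control replicate 2, and the 95% counting intervals of these libraries, 137.5 to 145.5 FPKM and 142.2 to 150.6 FPKM, overlapped. L7 averaged 90.2 ± 44.4 FPKM and Control 245 ± 92.9 FPKM (SD, n = 3 each). The difference was -1.46 ± 0.40 (SE) on the log2(FPKM + 1) scale, the scale of every log2 difference below unless another is named.

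Cxcl10 encodes the ligand that type I interferon and TNF can also induce. It was at 135.0, 137.4 and 82.5 FPKM in L7 replicates 1, 2 and 3, against 347.6, 233.8 and 375.9 FPKM in Control replicates 1, 2 and 3. Here the groups stood clearly apart, with the highest L7 library far below the lowest Control library, and each value rested on 2193 to 3757 reads in L7 and 5697 to 11634 reads in Control. L7 averaged 118 ± 31.0 FPKM and Control 319 ± 75.2 FPKM (SD, n = 3 each), a log2 difference of -1.43 ± 0.27 (SE). By rank among all genes in a library, Cxcl10 stood at 802, 766 and 1251 in L7 replicates 1, 2 and 3, against 254, 405 and 239 in Control replicates 1, 2 and 3.

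Cxcl11, the ligand gene that C57BL/6 mice carry in disrupted form, was transcribed at a much lower level. It was at 2.28, 3.52 and 2.05 FPKM in L7 replicates 1, 2 and 3, against 9.20, 6.17 and 8.31 FPKM in Control replicates 1, 2 and 3. Again no L7 library reached the lowest Control library. The values rested on 136, 196 and 117 reads in L7, the smallest with a 95% exact Poisson interval of 97 to 140 reads, and on 517, 322 and 551 reads in Control; such intervals cover counting error only. L7 averaged 2.62 ± 0.79 FPKM and Control 7.89 ± 1.56 FPKM (SD, n = 3 each), a log2 difference of -1.30 ± 0.22 (SE), which the added 1 FPKM makes smaller for a gene at this level.

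Cxcr3 encodes the receptor for all 3 ligands. It was at 4.09, 7.94 and 3.11 FPKM in L7 replicates 1, 2 and 3, against 4.64, 3.72 and 7.19 FPKM in Control replicates 1, 2 and 3. The groups overlapped fully, with the highest and the lowest of the 6 libraries both in L7. L7 averaged 5.05 ± 2.56 FPKM and Control 5.18 ± 1.80 FPKM (SD, n = 3 each), a log2 difference of -0.07 ± 0.33 (SE). That value took either sign when a library was left out: it was -0.40 without L7 replicate 2, -0.25 without Control replicate 2 and -0.12 without Control replicate 1, and 0.16 without L7 replicate 3, 0.15 without Control replicate 3 and 0.01 without L7 replicate 1. In bulk muscle, fewer cells of a type and less RNA per cell cannot be told apart, for the receptor as for the ligands.

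**Figure D1:**
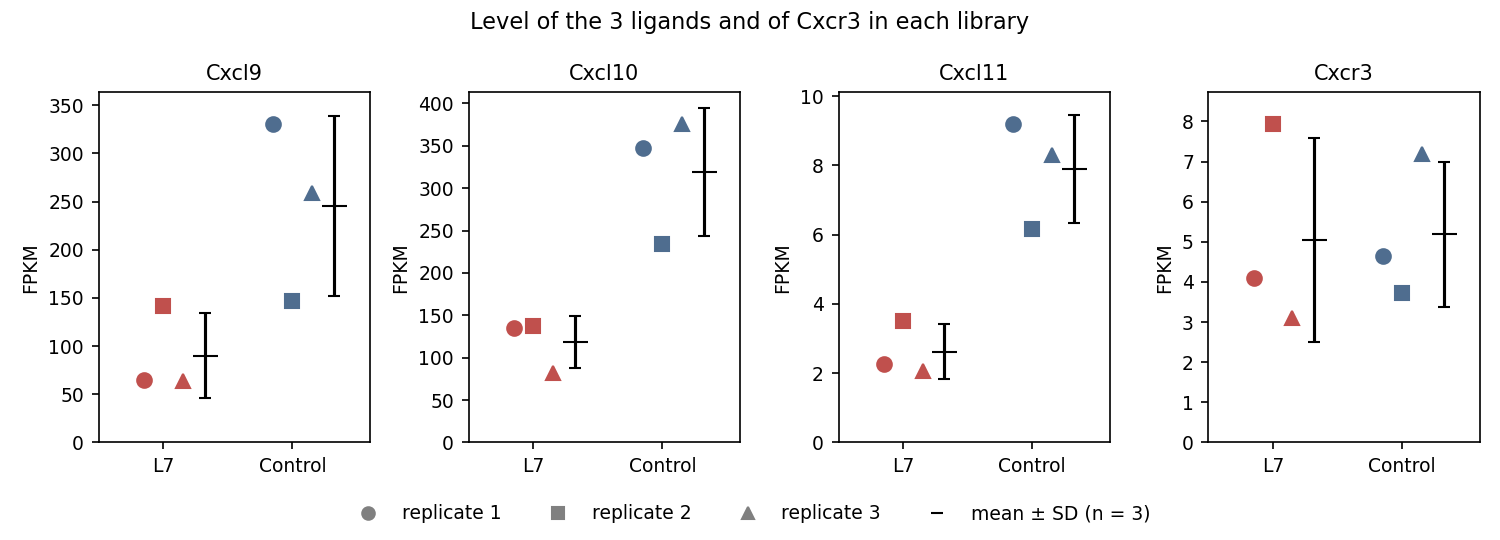
Level in FPKM (vertical axes, linear from 0) of Cxcl9, Cxcl10, Cxcl11 and Cxcr3 in the L7 libraries (left in each panel) and the Control libraries (right); symbols are replicates 1 to 3 and bars are mean ± SD, n = 3. No L7 library reaches the lowest Control library for the 3 ligands, with Cxcl9 closest (141.4 FPKM in L7 replicate 2, 146.4 FPKM in Control replicate 2), and Cxcr3 overlaps.

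Across the 14788 genes tested, no gene passed limma at an adjusted p of 0.05 in either direction (0% lower, 0% higher; smallest adjusted p 0.468), and none did with limma voom on whole reads; at an unadjusted p under 0.05, 629 genes (4.25%) were lower and 244 (1.65%) higher in L7. Groups that did not overlap, with L7 lower, were found for 13.7% of all tested genes and for the 3 ligands, a count that the choice of these genes had fixed. A log2 difference as low as that of Cxcl11, the smallest of the 3, or lower was found for 36 genes, 0.243% of those tested. In the authors' deposited table, which compares the same groups, the log2 fold change of L7 over Control was -1.29 for Cxcl9, -1.29 for Cxcl10, -1.43 for Cxcl11 and 0.09 for Cxcr3. The authors' deposited table marked the 3 ligands as significant and not the receptor, where 0.751% of its genes were marked lower and 0.382% higher; its adjusted p-values were 1.00 for Cxcl9, 0.0601 for Cxcl10 and 0.0229 for Cxcl11, and 0.0221% of its genes were lower with one under 0.05. The authors' deposited table of Gene Ontology terms listed the 3 ligands, all lower, as the 3 marked genes out of 6 annotated to CXCR3 chemokine receptor binding.

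The order of the 4 levels was not the same in the 2 groups. In L7 the means ran from Cxcl10 through Cxcl9 and Cxcr3 down to Cxcl11, and in Control from Cxcl10 through Cxcl9 and Cxcl11 down to Cxcr3. Cxcl10 and Cxcl9 were neighbours that did not differ beyond their spread in either group: the ratio of Cxcl9 to Cxcl10 FPKM was 0.481, 1.03 and 0.779 in L7 replicates 1, 2 and 3, against 0.951, 0.626 and 0.690 in Control replicates 1, 2 and 3. L7 replicate 2 was the only library with more Cxcl9 than Cxcl10. Cxcr3 was above Cxcl11 in each L7 library and below it in each Control library, although the ranges of mean ± SD of these genes overlapped in both groups.

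The proportions of the ligands to each other overlapped between the groups, whereas the ligands stood lower against the receptor in L7. The ligand sum was 202, 282 and 149 FPKM in L7 replicates 1, 2 and 3, against 688, 386 and 643 FPKM in Control replicates 1, 2 and 3, a difference of -1.44 ± 0.37 (SE) on the log2 scale with nothing added. Cxcl10 stood 59.2, 39.1 and 40.2 times above Cxcl11 in L7 replicates 1, 2 and 3, against 37.8, 37.9 and 45.2 times in Control replicates 1, 2 and 3, so the groups overlapped in this ratio as in that of Cxcl9 to Cxcl10. Cxcl9 made up 32.1% to 50.1% of the ligand sum in L7 and 37.9% to 48.1% in Control, and Cxcl11 made up 1.129% to 1.381% in L7 and 1.292% to 1.597% in Control. Per unit of Cxcr3, the ligand sum was 49.4, 35.6 and 47.9 in L7 replicates 1, 2 and 3, against 148, 104 and 89.5 in Control replicates 1, 2 and 3. This ratio does not depend on library scaling, and its groups did not overlap; the log2 difference was -1.34 ± 0.26 (SE).

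Cd3e, a subunit of the T cell receptor complex, gave a second yardstick within each library. It was at 2.97, 5.92 and 2.72 FPKM in L7 replicates 1, 2 and 3, against 4.00, 3.47 and 4.68 FPKM in Control replicates 1, 2 and 3, with L7 replicate 2 highest, as for Cxcr3. Cxcr3 per Cd3e was 1.38, 1.34 and 1.14 in L7 replicates 1, 2 and 3, against 1.16, 1.07 and 1.54 in Control replicates 1, 2 and 3. Cxcl10 per Cd3e was 45.5, 23.2 and 30.3 in L7 replicates 1, 2 and 3, against 86.8, 67.3 and 80.4 in Control replicates 1, 2 and 3. The groups thus overlapped in receptor per Cd3e and did not overlap in Cxcl10 per Cd3e, where L7 was lower. Against the summed FPKM of 11 macrophage and monocyte markers, Cxcl10 stood at 3.27%, 4.15% and 4.35% in L7 replicates 1, 2 and 3, against 11.1%, 8.33% and 8.75% in Control replicates 1, 2 and 3. The markers Lyz2 and C1qa weighed most in that sum, at means of 1475 and 757 FPKM over all libraries.

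**Figure D2:**
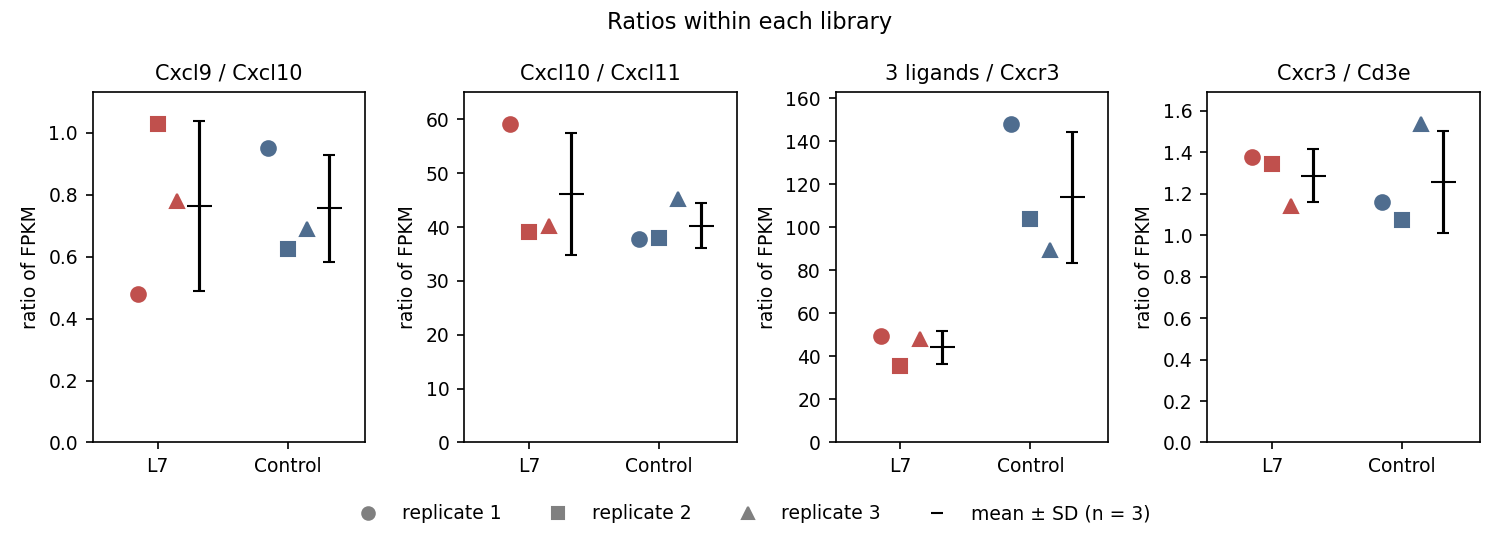
Ratios of FPKM within each library (vertical axes, linear from 0) for Cxcl9 over Cxcl10, Cxcl10 over Cxcl11, the 3 ligands over Cxcr3 and Cxcr3 over Cd3e, with L7 libraries left and Control libraries right in each panel; bars are mean ± SD, n = 3. Only the ratio of ligands to receptor separates the groups, from 35.6 to 49.4 in L7 and from 89.5 to 148 in Control.

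The split of the libraries by sex was uneven, so the members were also compared within each sex, without a test, on the log2 FPKM scale. Among females (2 L7 libraries, 1 Control library), the log2 difference was -0.62 for Cxcl9, -1.13 for Cxcl10, -1.20 for Cxcl11 and 0.42 for Cxcr3. Among males (1 L7 library, 2 Control libraries), it was -2.17 for Cxcl9, -1.42 for Cxcl10, -1.94 for Cxcl11 and -0.50 for Cxcr3. The ligand differences were thus negative in both sexes, and the receptor took opposite signs. Among females, however, Cxcl9 in L7 replicate 2 was close to Control replicate 2 (141.4 against 146.4 FPKM). The female difference of Cxcl9 rested mainly on L7 replicate 3, at 64.3 FPKM. That of Cxcr3 was positive through L7 replicate 2, at 7.94 FPKM. For Cxcr3, L7 replicate 3, at 3.11 FPKM, lay below Control replicate 2, at 3.72 FPKM. With sex as a covariate in the fit over all genes the log2 differences were -1.38 for Cxcl9, -1.27 for Cxcl10, -1.26 for Cxcl11 and -0.03 for Cxcr3. Whether sex plays a part in the values was not tested further.

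The genes whose course over the 6 libraries was most like that of each member were found by the root mean square distance between values of log2(FPKM + 1), each centred on its own mean. Genes without a symbol, Gm-numbered genes and Rik genes were left out of the 5 nearest. The ranks of the members, given further on, count every tested gene. For Cxcl9 the 5 nearest were Gbp4, Tgtp2, Ch25h, Gbp2 and Serpina3f, at distances of 0.154 to 0.195. Gbp4 and Gbp2 encode interferon-inducible guanylate-binding proteins, Tgtp2 an interferon-inducible GTPase and Ch25h cholesterol 25-hydroxylase. Gbp4 was at 31.3, 62.9 and 30.7 FPKM in L7 replicates 1, 2 and 3, against 130.7, 54.0 and 125.5 FPKM in Control replicates 1, 2 and 3, so its groups overlapped.

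For Cxcl10 the nearest were Tnfrsf9, Trbj1-1, Cd274, Gbp5 and Irf1, at 0.131 to 0.198. Tnfrsf9 encodes the costimulatory receptor 4-1BB of activated lymphocytes, Trbj1-1 is a joining segment of the T cell receptor beta chain, and Cd274 encodes the checkpoint ligand PD-L1. Tnfrsf9 was at 3.98, 4.66 and 2.40 FPKM in L7 replicates 1, 2 and 3, against 10.46, 6.70 and 12.04 FPKM in Control replicates 1, 2 and 3. Cd274 was at 28.5, 34.8 and 16.8 FPKM in L7 replicates 1, 2 and 3, against 66.8, 40.5 and 75.9 FPKM in Control replicates 1, 2 and 3. Neither gene's groups overlapped, which their choice by nearness to Cxcl10 had largely fixed. Of all tested genes, 13.7% did not overlap with L7 lower. For Cxcl11 the nearest were Ch25h, Ibsp, Irgm1, Tnfrsf9 and Gbp7, at 0.137 to 0.188.

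Among the members themselves, Cxcl11 was the 9th nearest gene to Cxcl10 and Cxcl10 the 9th nearest to Cxcl11. Cxcl9 ranked 108 from Cxcl10 and 37 from Cxcl11, with L7 replicate 2 high for Cxcl9 and not for Cxcl10. Counted from Cxcl9, Cxcl11 ranked 13 and Cxcl10 ranked 30. For Cxcr3 the nearest were Cd6 and Cd3g, both T cell surface genes, H2-DMb2, Rab19 and Flt3, at 0.101 to 0.142. Cd6 was at 2.95, 5.74 and 1.98 FPKM in L7 replicates 1, 2 and 3, against 3.70, 2.67 and 4.44 FPKM in Control replicates 1, 2 and 3. In this order of all tested genes around Cxcr3, the ligands were far down, at ranks 13641 for Cxcl11, 13993 for Cxcl10 and 14132 for Cxcl9, with 14788 genes tested. Counted from the ligands, Cxcr3 was less far down, at rank 4119 from Cxcl9, 8267 from Cxcl10 and 8727 from Cxcl11. The distance also counts how widely a gene varies. The root mean square of the centred values was 0.41 for Cxcr3 and 0.69 to 0.89 for the ligands, which alone puts them far from it. These distances describe 6 libraries of 2 groups and share their depth and scaling.

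**Figure D3:**
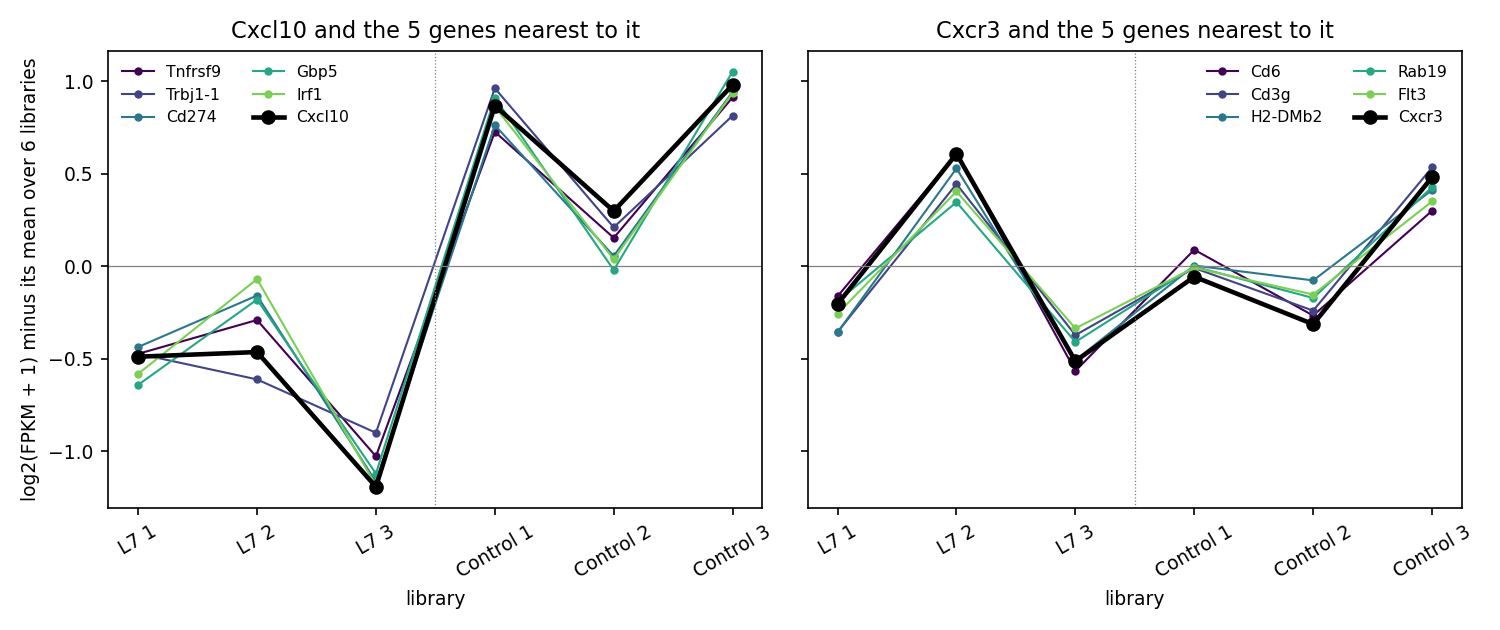
Centred log2(FPKM + 1) (vertical axis) in the 3 L7 and 3 Control libraries (horizontal axis, lines only join points of a gene) for Cxcl10 (left panel, black) and Cxcr3 (right panel, black), each with its 5 nearest genes (Gm-numbered, Rik and symbol-less genes aside). Cxcl10 and its neighbours are high in Control and low in L7, while Cxcr3 and its neighbours peak in L7 replicate 2 and Control replicate 3.

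The pathway that induces the ligands was described from a list of 17 genes, from the cytokines through their receptors and kinases to the transcription factors. The list also holds Socs1, which inhibits that pathway. It was chosen with earlier results of these data known, so its counts are a description and no test of the pathway. All 17 had a negative difference, against 70.8% of all tested genes, and their median log2 difference was -0.65, against -0.15 over all tested genes. None of them passed limma or limma voom. In limma 8 were lower at an unadjusted p under 0.05, where 4.25% of all tested genes were. The same number, 8, had groups that did not overlap, all lower in L7, where 13.7% of all tested genes did so. Without L7 replicate 3, a choice made after seeing the data, 16 of the 17 were negative. Median-of-ratios scaling, which shifts the median of all tested genes by 0.15, to near 0, also left 16 negative. With that scaling and without L7 replicate 3, 15 were negative.

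Ifng encodes interferon gamma, the cytokine upstream of all 3 ligands; it was picked out after its values were seen. Ifng was at 0.796, 2.13 and 1.55 FPKM in L7 replicates 1, 2 and 3, against 4.77, 2.53 and 5.73 FPKM in Control replicates 1, 2 and 3. No L7 library reached the lowest Control library, and the log2 difference was -1.09 ± 0.30 (SE; limma adjusted p = 0.580). Irf1, a transcription factor that interferon gamma induces, was at 113.8, 162.8 and 74.6 FPKM in L7 replicates 1, 2 and 3, against 311.8, 175.4 and 328.2 FPKM in Control replicates 1, 2 and 3. Its groups did not overlap either, with L7 replicate 2 nearest to Control replicate 2, as for Cxcl9, and the log2 difference was -1.23 ± 0.34 (SE; limma adjusted p = 0.580).

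Socs1, the feedback inhibitor of JAK kinases, was lower in L7 as well. It averaged 37.6 ± 11.6 FPKM in L7 and 89.2 ± 37.0 FPKM in Control (SD, n = 3 each), with groups that did not overlap. Jak1, a kinase of the interferon receptors and the gene of highest level after Irf1, averaged 152 ± 24.1 FPKM in L7 and 172 ± 11.1 FPKM in Control (SD, n = 3 each), with groups that overlapped and a log2 difference of -0.18 ± 0.17 (SE; limma adjusted p = 0.612), which was -0.048 without L7 replicate 3.

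The genes of other proteins that bind CXCR3 or act on its ligands had groups that overlapped. Of 6 genes, 3 had a positive and 3 a negative difference, with a median of -0.01, none passed limma or limma voom, none had an unadjusted p under 0.05, and the groups overlapped for each. Pf4, platelet factor 4, averaged 145 ± 83.6 FPKM in L7 and 170 ± 43.5 FPKM in Control. Dpp4, the peptidase that trims and inactivates CXCR3 ligands, averaged 8.09 ± 2.57 FPKM in L7 and 8.50 ± 3.40 FPKM in Control. The scavenging receptor Ackr3, which binds CXCL11, averaged 13.7 ± 4.00 FPKM in L7 and 13.2 ± 1.56 FPKM in Control (SD, n = 3 each for these genes). The signs of Dpp4, Ackr3, Ackr1 and Ccl21a turned with the scaling or with a library left out. Ackr1, a chemokine-binding receptor of venules, averaged 7.48 ± 1.92 FPKM in L7 and 6.72 ± 2.43 FPKM in Control. Ccl21a, a lymphoid chemokine, ranged from 0.336 to 9.63 FPKM in L7 and from 0.202 to 6.66 FPKM in Control, and Sdc4, a heparan sulphate proteoglycan, averaged 49.4 ± 16.9 FPKM in L7 and 69.3 ± 10.0 FPKM in Control.

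Among CXC chemokines as a family, the 3 ligands gave 29.1%, 46.9% and 40.3% of the summed FPKM in L7 replicates 1, 2 and 3, against 59.1%, 51.1% and 57.7% in Control replicates 1, 2 and 3. Every L7 library was below every Control library in this share. Of the 12 other CXC chemokines 7 were tested, with 6 negative and 1 positive difference and a median of -0.57; none passed limma or limma voom, 1 had an unadjusted p under 0.05 (4.25% of all tested genes, lower), and the groups of 1 did not overlap, with L7 lower, near the 13.7% of all tested genes. Cxcl12, the ligand of CXCR4, was at 96.9, 78.6 and 44.0 FPKM in L7 replicates 1, 2 and 3, against 80.8, 89.0 and 85.3 FPKM in Control replicates 1, 2 and 3. It overlapped between the groups, and its log2 difference was -0.29 with all libraries and 0.04 without L7 replicate 3. The neutrophil chemokines Cxcl2 and Cxcl5 had log2 differences of -1.05 ± 0.51 and -1.02 ± 0.51 (SE; limma adjusted p = 0.580 for each), and the groups of both overlapped. Without L7 replicate 3 these differences were -0.43 for Cxcl2 and -0.39 for Cxcl5. Cxcl2 was at 19.2, 19.6 and 4.62 FPKM in L7 replicates 1, 2 and 3, against 31.4, 18.1 and 32.4 FPKM in Control replicates 1, 2 and 3.

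The other CXC receptors had groups that overlapped. Of 6 genes, 4 were tested, with 3 negative and 1 positive difference and a median of -0.15, equal to that of all tested genes; none passed limma or limma voom and none had an unadjusted p under 0.05. Cxcr4, the most abundant, averaged 41.8 ± 15.8 FPKM in L7 and 42.9 ± 1.69 FPKM in Control, and its log2 difference of -0.11 was 0.06 with median-of-ratios scaling and 0.24 without L7 replicate 3. Cxcr6, a receptor of resident T cells, averaged 2.51 ± 1.45 FPKM in L7 and 2.81 ± 0.20 FPKM in Control, and Cxcr2, the neutrophil receptor, 3.20 ± 2.47 FPKM in L7 and 5.32 ± 1.01 FPKM in Control (SD, n = 3 each). Cxcr1 and Cxcr5 were under the filter, at means of 0.154 and 0.469 FPKM in L7 and 0.277 and 0.527 FPKM in Control.

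Downstream of the receptor, all 8 genes of G protein and arrestin signalling had a negative difference, with a median of -0.27, none passed limma or limma voom, none had an unadjusted p under 0.05, and the groups of 1, Gnai3, did not overlap. Over all tested genes, 70.8% were negative. Groups did not overlap, with L7 lower, for 13.7% of all tested genes, near the share of this list. The count of negative differences rested on L7 replicate 3: without it, a choice made after seeing the data, 3 of the 8 were negative. Gnai2, the inhibitory G protein subunit through which CXCR3 signals in lymphocytes, was at 718.5, 623.6 and 395.8 FPKM in L7 replicates 1, 2 and 3, against 628.3, 654.3 and 761.9 FPKM in Control replicates 1, 2 and 3. L7 replicate 3 was the lowest of all and the other L7 libraries lay within or near the range of Control.

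**Figure D4:**
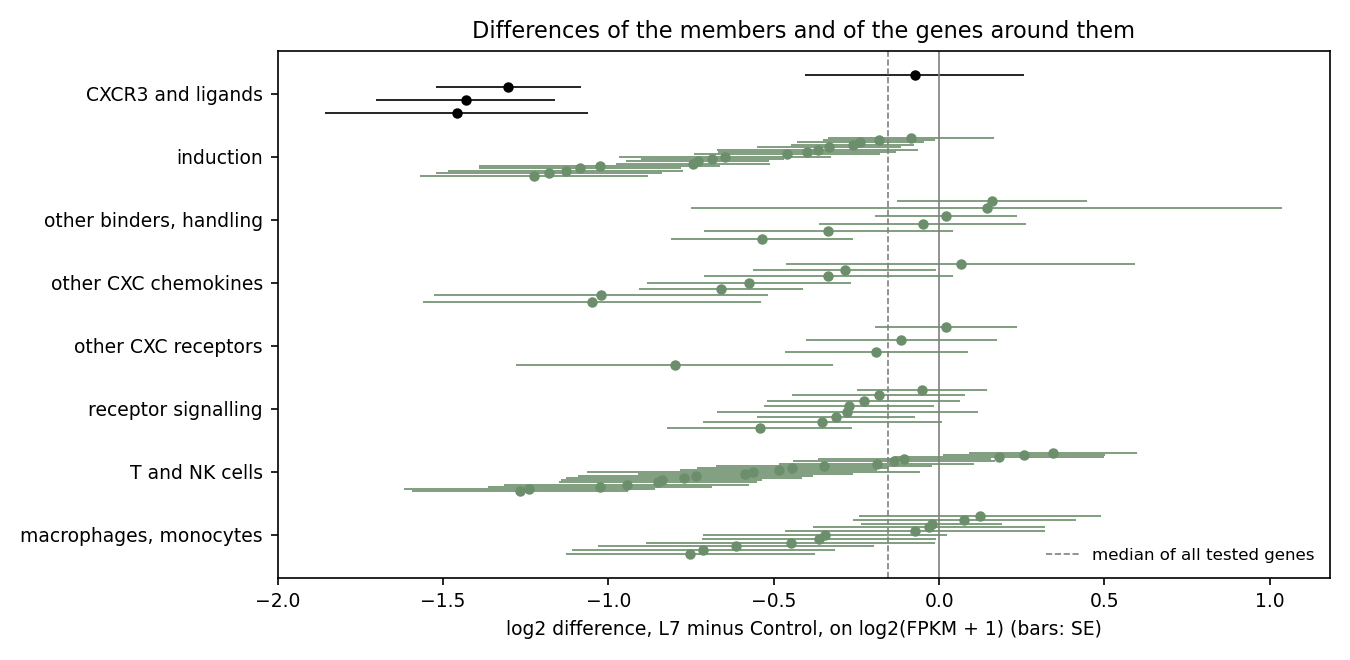
Log2 difference of L7 minus Control on log2(FPKM + 1) (horizontal axis) for the tested genes of each list (rows), points with bars of 1 SE; the dashed line is the median of all tested genes, -0.15. The 3 ligands lie between -1.46 and -1.30, the genes of the induction list lie below 0, and the other binders and receptors lie on both sides of the dashed line.

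Markers of the cells that could carry the receptor or make the ligands were read from lists, and their part in the differences of the members was not tested. These lists, too, were chosen with earlier results of these data known. Of 20 T and NK cell markers 19 were tested, with 16 negative and 3 positive differences and a median of -0.56; none passed limma or limma voom, 6 had an unadjusted p under 0.05, and 4 did not overlap, with L7 lower. Over all tested genes, 70.8% were negative, 4.25% were lower at an unadjusted p under 0.05 and 13.7% did not overlap with L7 lower. Without L7 replicate 3, 13 of 19 were negative. Their summed FPKM was 246, 316 and 192 in L7 replicates 1, 2 and 3, against 395, 327 and 635 in Control replicates 1, 2 and 3. Ccl5, a chemokine gene, Gzmb and Gzma weighed most in that sum, at means of 119, 47.6 and 44.0 FPKM over all libraries. The sum therefore does not count cells, and the groups of Ccl5 overlapped. The largest differences were those of the granzyme genes of cytotoxic and NK cells, Gzmb and Gzma. Gzmb was at 39.3, 25.7 and 18.3 FPKM in L7 replicates 1, 2 and 3, against 67.6, 45.7 and 89.2 FPKM in Control replicates 1, 2 and 3. Its groups did not overlap, and the log2 difference was -1.27 ± 0.33 (SE; limma adjusted p = 0.580), beside -0.10 ± 0.26 for Cd3e (SE; limma adjusted p = 0.839). Cd4, Cd8a and Cd8b1, whose values were also seen before they were named, were the markers with a positive difference, at 0.26, 0.18 and 0.34, each with groups that overlapped.

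Markers of macrophages and monocytes, which are among the makers of CXCL9 and CXCL10 in inflamed tissue, did not separate the groups. Of 11 genes 9 had a negative and 2 a positive difference, with a median of -0.34; none passed limma or limma voom, none had an unadjusted p under 0.05 and all overlapped. Their summed FPKM ranged from 1898 to 4124 in L7 and from 2807 to 4294 in Control. The lowest sum was that of L7 replicate 3, and without it 4 of the 11 were negative. C1qa, a complement gene of macrophages, averaged 748 ± 82.5 FPKM in L7 and 766 ± 150 FPKM in Control, and Fcgr1, an Fc receptor gene that interferon gamma raises, 144 ± 66.8 FPKM in L7 and 230 ± 64.0 FPKM in Control (SD, n = 3 each).

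The remaining marker lists overlapped in their sums, apart from those of muscle. Dendritic cell markers summed to 23.6 to 64.1 FPKM in L7 and 39.6 to 49.7 FPKM in Control (5 of 6 tested genes negative, 3 of 6 without L7 replicate 3), and neutrophil markers to 51.0 to 299.5 FPKM in L7 and 164 to 269 FPKM in Control (4 of 5 negative). The B cell markers summed to 2.59 to 4.36 FPKM in L7 and 2.77 to 4.55 FPKM in Control, with 1 of 4 tested and negative, the endothelial markers to 209 to 221 FPKM in L7 and 191 to 236 FPKM in Control (3 of 7 negative), and the fibroblast markers to 10220 to 15000 FPKM in L7 and 11260 to 15860 FPKM in Control (4 of 5 negative). No marker of any list was at 0 in all 6 libraries. Adult muscle fibre genes went the other way, with all 9 positive, a median of 1.00, groups of 4 not overlapping with L7 higher, against 5.49% of all tested genes, and sums of 30750 to 90960 FPKM in L7 and 20130 to 28360 FPKM in Control. The highest sum was that of L7 replicate 3, and without it 0 of the 9 were negative. Markers of regenerating muscle summed to 3914 to 4546 FPKM in L7 and 2199 to 3175 FPKM in Control, with 2 of 5 positive. None of these markers passed limma or limma voom, and 1, Actc1, the cardiac actin of young fibres, had an unadjusted p under 0.05, with 3229 ± 359 FPKM in L7 and 1902 ± 406 FPKM in Control (SD, n = 3 each). Actc1 had by far the highest level of the regenerating muscle list in each library, so the sum rested on it. The groups of the other genes of that list overlapped, with log2 differences of 0.25 for Myh8 and -0.45 for Myog.

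The genes around the ligand cluster had smaller differences than the ligands. Within 250 kb of Cxcl10, the tested neighbours Uso1, U90926, Naaa, Sdad1, Nup54 and Scarb2 had log2 differences from -0.59 for Naaa to -0.11 for Scarb2, all with groups that overlapped and limma adjusted p-values of 0.580 to 0.698; the sign of Scarb2 turned with the scaling and that of U90926 with array weights. Naaa was at -0.10 without Control replicate 3, -0.97 without Control replicate 2 and -0.36 without L7 replicate 3. Art3, an ADP-ribosyltransferase gene on the plus strand at chr5:92331827-92414628, spans Cxcl10 and Cxcl11. Art3 was at 26.6, 25.5 and 72.1 FPKM in L7 replicates 1, 2 and 3, against 33.1, 38.8 and 29.4 FPKM in Control replicates 1, 2 and 3, with L7 replicate 3 far above the rest. Its exons share 133 of the 2252 exon bases of Cxcl10 and none of those of Cxcl9 and Cxcl11, and since the strand setting of the counting is not given, reads from those 133 bases cannot be told apart. The log2 difference of Art3 was 0.12 ± 0.38 (SE; limma adjusted p = 0.870), and it was -0.35 without L7 replicate 3. Ppef2, Mir6415 and Fam47e were under the filter on low values.

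**Figure D5:**
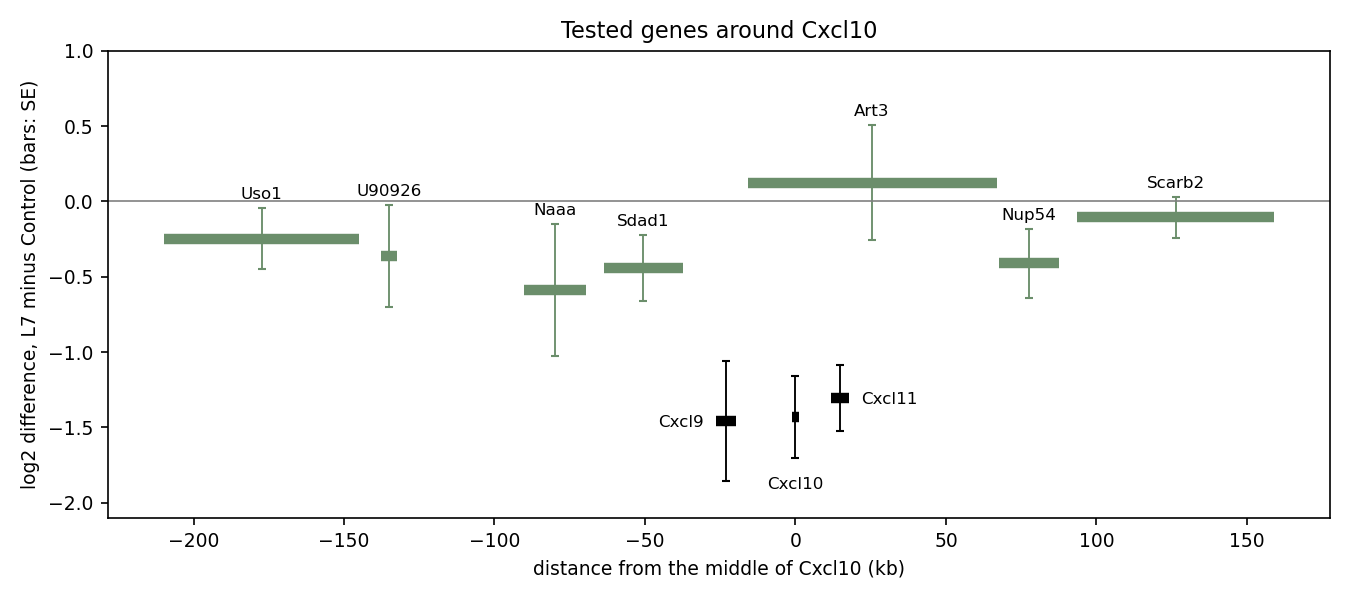
Log2 difference of L7 minus Control on log2(FPKM + 1) (vertical axis, whiskers of 1 SE) for the tested named genes around Cxcl10, each drawn as a bar over its extent, by distance from the middle of Cxcl10 in kb (horizontal axis). Cxcl9, Cxcl10 and Cxcl11 (black) lie between -1.46 and -1.30, and the other genes (green) between -0.59 and 0.12.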

How the data were processed

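RNA was selected for polyadenylation and sequenced after library preparation with a NEBNext Ultra RNA kit, per the labels' protocols. The authors deposited 1 FPKM value (fragments per kilobase of gene, scaled to depth) per gene and library for 52369 genes. Per the file headers, a second deposited table gives for each gene the group means of a normalised read count signal, a log2 fold change and p-values; the authors also deposited p-values of Gene Ontology terms. Per the submitters' processing notes, the build was mm10 and the tools were DESeq 1.12.0, HISAT2 2.0.4, TopHat2 2.0.12 and Bowtie2 2.2.3, with no role given. The counter, annotation and strand setting were not given in the sources used here.

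GENCODE M21 gave symbols and coordinates for 51719 genes, matched by Ensembl identifier. Steps in the FPKM of weakly expressed genes, together with the deposited group means, gave back whole reads for 152096 of 152096 values above 0 (100.0%, within 0.05), which served for depth, read numbers with exact 95% Poisson intervals, sex and limma voom. Reads in genes numbered 19420012 to 24663153 per library.

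Group was the only term of a two-sided limma-trend fit (limma 3.58.1 in R 4.3.3) to log2(FPKM + 1) of the 14788 genes with a mean of at least 1 FPKM, Benjamini-Hochberg adjusted over them at a threshold of 0.05; its code was tested on simulated data. The log2(FPKM + 1) scale understates changes of genes at low FPKM. Ratios were taken within libraries without a pseudocount. Members and lists were chosen with earlier results of these data known. Genes were named by rule: the members, annotated neighbours within 250 kb of Cxcl10 above 0 FPKM in any library (Gm-numbered and Rik genes aside), all other CXCR3 binders and CXC receptors, in each other list those that passed limma, the 2 of highest mean and the 2 of largest difference, and the 5 genes nearest to each member; Cd3e was named as a denominator. The 5 nearest genes also left out Gm-numbered, Rik and symbol-less genes. Alternatives covered the pseudocount, filters, scaling, array weights, sex, a replicate block, limma voom and each library left out. Figures used Python 3.11.15, pandas 2.3.3 and matplotlib 3.10.9. The deposited KEGG table was not used here.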

Additional observations from a re-analysis of the deposited data

How the results depend on the processing

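The ligands were lower in L7 under every alternative run, with Cxcl11 at -1.62 with limma voom on whole reads. With median-of-ratios scaling the log2 differences were -1.29 for Cxcl9, -1.26 for Cxcl10 and -1.17 for Cxcl11. With each library left out in turn, log2 differences ran from -1.83 to -1.21 for Cxcl9, -1.64 to -1.19 for Cxcl10, -1.47 to -1.19 for Cxcl11, -0.40 to 0.16 for Cxcr3, -1.70 to -1.22 for the ligand sum, -0.28 to 0.27 for Cxcl9 over Cxcl10, -0.28 to 0.02 for Cxcl11 over Cxcl10, -1.50 to -1.14 for ligands over Cxcr3 and -1.55 to -1.07 for Cxcl10 over Cd3e. Cxcr3 was also positive with array weights (0.32), median-of-ratios scaling (0.06) and quantile normalization (0.07). Over all genes limma called 0 to 1 genes with a library left out (Gm5559, without L7 replicate 1), 1 with median-of-ratios scaling and without L7 replicate 3 and 3 with array weights (Novel00250 and Gm20544 among them); none is a member and the cause was not tested. Deviations of same-numbered libraries correlated at 0.322, -0.065 and 0.087, so the numbers were not taken to pair them; with the replicate block 0 genes were called and the log2 differences of Cxcl9, Cxcl10, Cxcl11 and Cxcr3 stayed at -1.46, -1.43, -1.30 and -0.07. The planned edgeR test was not run, since the deposited values are FPKM.

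Of 442 values of 28 further named genes under alternatives, 405 kept their sign, 37 reversed it and none became a call. With median-of-ratios scaling, Dpp4 was at 0.11, Cxcr4 at 0.055 and Scarb2 at 0.066. Without L7 replicate 3 as well, Ccl21a was at -0.51, Ackr3 at -0.16, Cxcl12 at 0.075, Cxcr4 at 0.27, Gnai2 at 0.016, Arrb2 at 0.13, Plcb2 at 0.11, Art3 at -0.32 and Scarb2 at 0.0185. With quantile normalization, Dpp4 was at 0.11, Cxcr4 at 0.036 and Scarb2 at 0.0199. With array weights, Ccl21a was at -0.76, Ackr3 at -0.17, Cxcr4 at 0.18, Cxcr6 at 0.0215, Arrb2 at 0.13, Plcb2 at 0.10, U90926 at 0.0335 and Art3 at -0.36. With sex as a covariate, Ccl21a was at -0.52 and Art3 at -0.038. With a library left out, values ran from -0.66 to 0.95 for Ccl21a, -0.10 to 0.37 for Ackr1, -0.19 to 0.15 for Ackr3, -0.26 to 0.22 for Dpp4, -0.52 to 0.039 for Cxcl12, -0.33 to 0.24 for Cxcr4, -0.43 to 0.095 for Arrb2, -0.57 to 0.078 for Plcb2 and -0.35 to 0.38 for Art3. With median-of-ratios scaling and without L7 replicate 3, an alternative added after seeing the data, 2 of 8 signalling, 4 of 11 macrophage and 3 of 6 dendritic cell genes were negative. Depth limits Cxcl11 and Cxcr3 most, at 114 to 551 reads per library, and 3 libraries a group limit every comparison.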
